A study of Mus musculus with 26 samples.

Results

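The 9 genes described here, Glul, Slc1a3, Aqp4, Kcnj10, Sox9, Sox2, Hes1, Car14 and Dkk3, are markers of mature Müller glia, the radial glia of the retina. They were named as markers of this cell type, and all 9 were found among the 37991 Ensembl genes of the deposited count table, with 1 gene identifier for each symbol. The study asked whether inhibitors of histone-modifying enzymes slow the loss of rods in rd10 mice, a model of retinitis pigmentosa in which the rod phosphodiesterase gene Pde6b is mutated. Polyadenylated RNA was sequenced from 22 whole retinas and 4 samples of sorted rods, and every mouse, treated or control, carried the rd10 mutation (B6.CXB1-Pde6brd10/Jrd10). Mice were injected intraperitoneally between postnatal days 9 and 24. DZNep, which the study used as an inhibitor of the H3K27 methyltransferase EZH2, was compared in 2 treated and 4 control samples. UNC1999, a second EZH2 inhibitor, was compared in 3 treated and 3 control samples. UNC0642, an inhibitor of the H3K9 methyltransferases EHMT2 and EHMT1, was compared in 2 treated and 2 control samples, and Romidepsin, a histone deacetylase inhibitor, in 3 and 3. GSK2879552, an inhibitor of the demethylase LSD1, was given to rd10 mice crossed to B6.Cg-Tg(Nrl-EGFP)1Asw/J, in which the Nrl promoter drives green fluorescent protein in rods, and 2 treated and 2 control samples of fluorescent cells were sequenced after sorting. Controls received saline per the labels, and no retina without the rd10 mutation was analysed here.

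Müller glia span the retina from the photoreceptors to the inner limiting membrane and support its neurons. They take up glutamate and turn it into glutamine, carry potassium and water from active neurons to blood vessels and vitreous, and buffer carbon dioxide and acid. Their identity depends on SOX transcription factors and on Notch signalling, both of which also mark retinal progenitors. When photoreceptors die, Müller glia become reactive and change the expression of many of these genes.

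Total counts ranged from 13732959 to 36354094 in the retinas and from 7289460 to 19864491 in the sorted rods. Levels are CPM, counts relative to library sizes that were scaled by the trimmed mean of M-values (TMM) within each experiment, and 3 counts, the limit that a count of 0 allows, were worth 0.0825 to 0.412 CPM. Each treatment was compared with the controls of its own experiment by the quasi-likelihood test of edgeR, p-values were adjusted over all genes tested (Benjamini-Hochberg), and a gene passed at an adjusted p under 0.05. Fold changes are log2 of treated over control, so negative values are lower after treatment. Nothing in the labels says that the replicates came from separate litters or injections, so p-values measure the spread between these samples. All 26 libraries were used.

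In the coordinates of the files' build (NCBIM37), Slc1a3 lies on chromosome 15 (8584124 to 8660764, minus strand) and Dkk3 on chromosome 7 (119259533 to 119302571, minus). Glul lies on chromosome 1 (155747074 to 155756853, plus) and so does Kcnj10 (174271341 to 174304216, plus). The transcription factor genes Sox9 (chromosome 11, 112643538 to 112649074), Sox2 (chromosome 3, 34548927 to 34551383) and Hes1 (chromosome 16, 30064470 to 30067882) are all on the plus strand, Sox2 inside the noncoding gene Sox2ot without sharing exons with it. Car14 (chromosome 3, 95701691 to 95708614, minus) shares exonic sequence with Aph1a on the other strand, and Glul with 5830403L16Rik, which held a mean of 54.7 counts against 40926 for Glul. Whether reads were counted by strand is not given in the sources used here, so reads of Car14 and Aph1a (means of 2145 and 651 counts) cannot be told apart where they overlap.

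RefSeq promoter sequences (build GRCm38.p6) were at hand for 5 of the 9 genes, Glul, Slc1a3, Kcnj10, Sox2 and Car14, and the 250 bases before each start were read. They are shown for the glutamine synthetase gene, the glutamate transporter gene and Sox2, because Sox2 moved apart from the other 2 in several comparisons and because the inhibited enzymes act on chromatin, promoters included. The Glul window (chr1:153899679-153899928, plus strand), the Slc1a3 window (chr15:8710808-8711057, minus) and the Sox2 window (chr3:34649745-34649994, plus) are given 5′ to 3′, with the SOX core motif in capitals where it occurs.
Glul: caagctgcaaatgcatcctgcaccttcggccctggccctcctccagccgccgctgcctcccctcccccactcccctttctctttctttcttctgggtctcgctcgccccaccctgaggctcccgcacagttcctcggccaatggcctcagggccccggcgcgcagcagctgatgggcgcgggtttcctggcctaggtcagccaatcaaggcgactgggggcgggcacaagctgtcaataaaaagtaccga
Slc1a3: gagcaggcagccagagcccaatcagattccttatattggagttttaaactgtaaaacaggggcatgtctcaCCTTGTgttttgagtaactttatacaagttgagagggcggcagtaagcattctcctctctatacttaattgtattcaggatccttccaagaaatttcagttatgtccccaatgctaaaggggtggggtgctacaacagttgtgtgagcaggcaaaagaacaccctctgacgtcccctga
Sox2: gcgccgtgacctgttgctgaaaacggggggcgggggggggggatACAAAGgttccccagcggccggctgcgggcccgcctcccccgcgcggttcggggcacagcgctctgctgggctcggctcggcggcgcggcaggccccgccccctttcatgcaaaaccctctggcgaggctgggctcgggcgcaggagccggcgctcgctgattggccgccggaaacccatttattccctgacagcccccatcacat

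The windows were unlike in composition. GC content was 64.8% with 15 CpG dinucleotides in Glul, 44.8% with 2 in Slc1a3 and 72% with 27 in Sox2, against medians of 52.4% and 6 over 32851 windows of 27025 genes. The 4 motifs searched on both strands were the SOX core (ACAANG, in 36.3% of all windows), the RBPJ core of Notch signalling (TGGGAA, 21.6%), and the N box (CACNAG, 36.7%) and E box (CANNTG, 66.2%), which bHLH factors such as HES1 bind, and a match is a description of these letters only. The SOX core was found 1 time each in Slc1a3 and Sox2, and in none of Glul, Kcnj10 and Car14. The RBPJ core was in none of the 5 windows.

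Glul, which encodes glutamine synthetase, was the most abundant of the 9 in the 12 control retinas, and Hes1, a transcriptional repressor induced by Notch, the least. Per kilobase of exon, the scale on which genes can be compared, the median level was 898 CPM per kb for Glul and 484 for Dkk3, a secreted glycoprotein of the Dickkopf family. Then came the glutamate transporter Slc1a3 (54.0), the membrane-bound carbonic anhydrase Car14 (53.5), the water channel Aqp4 (47.3) and the potassium channel Kcnj10 (32.4). The transcription factors were lowest, at 19.3 for Sox2, 10.6 for Sox9 and 9.49 for Hes1. The ranges over the 12 retinas of Glul (277 to 1177 CPM per kb) and Dkk3 (332 to 549) overlapped, as did those of Slc1a3 (48.1 to 72.1), Car14 (30.1 to 68.6), Aqp4 (32.7 to 56.6) and Kcnj10 (24.3 to 47.4), and those of Sox9 (9.60 to 13.9) and Hes1 (5.16 to 16.0). Dkk3 stood clear above Slc1a3, and Sox2 (17.3 to 27.1) clear above Sox9, in all 12.

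Levels of the 9 genes also differed between the 4 groups of control retinas, none of which had an inhibitor. All 9 passed the test across the groups, where 39.1% of all genes did. Glul varied most, 4.26-fold between the lowest and the highest control, with means of 3701 ± 272 CPM (SD, n = 4) in the DZNep controls, 3246 ± 630 (n = 3) in the Romidepsin controls, 1742 ± 868 (n = 3) in the UNC1999 controls and 1175 ± 360 (n = 2) in the UNC0642 controls (CPM scaled over the control libraries together; adjusted p = 0.00551 for Glul by edgeR's quasi-likelihood test). Hes1 came next with a 3.11-fold range, from 10.9 ± 0.387 CPM in the UNC1999 controls to 30.4 ± 3.27 in the UNC0642 controls (adjusted p = 3.21e-05 by the same test). The UNC1999 retinas are a library series of their own by their library names, while the other 3 experiments share one. Summed levels of 21 gliosis genes were also unequal among these controls, 1381 to 1963 CPM for DZNep and 6217 to 7314 for UNC0642, and their part in the differences was not tested. Each treatment was therefore read against its own controls.

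**Figure D1:**
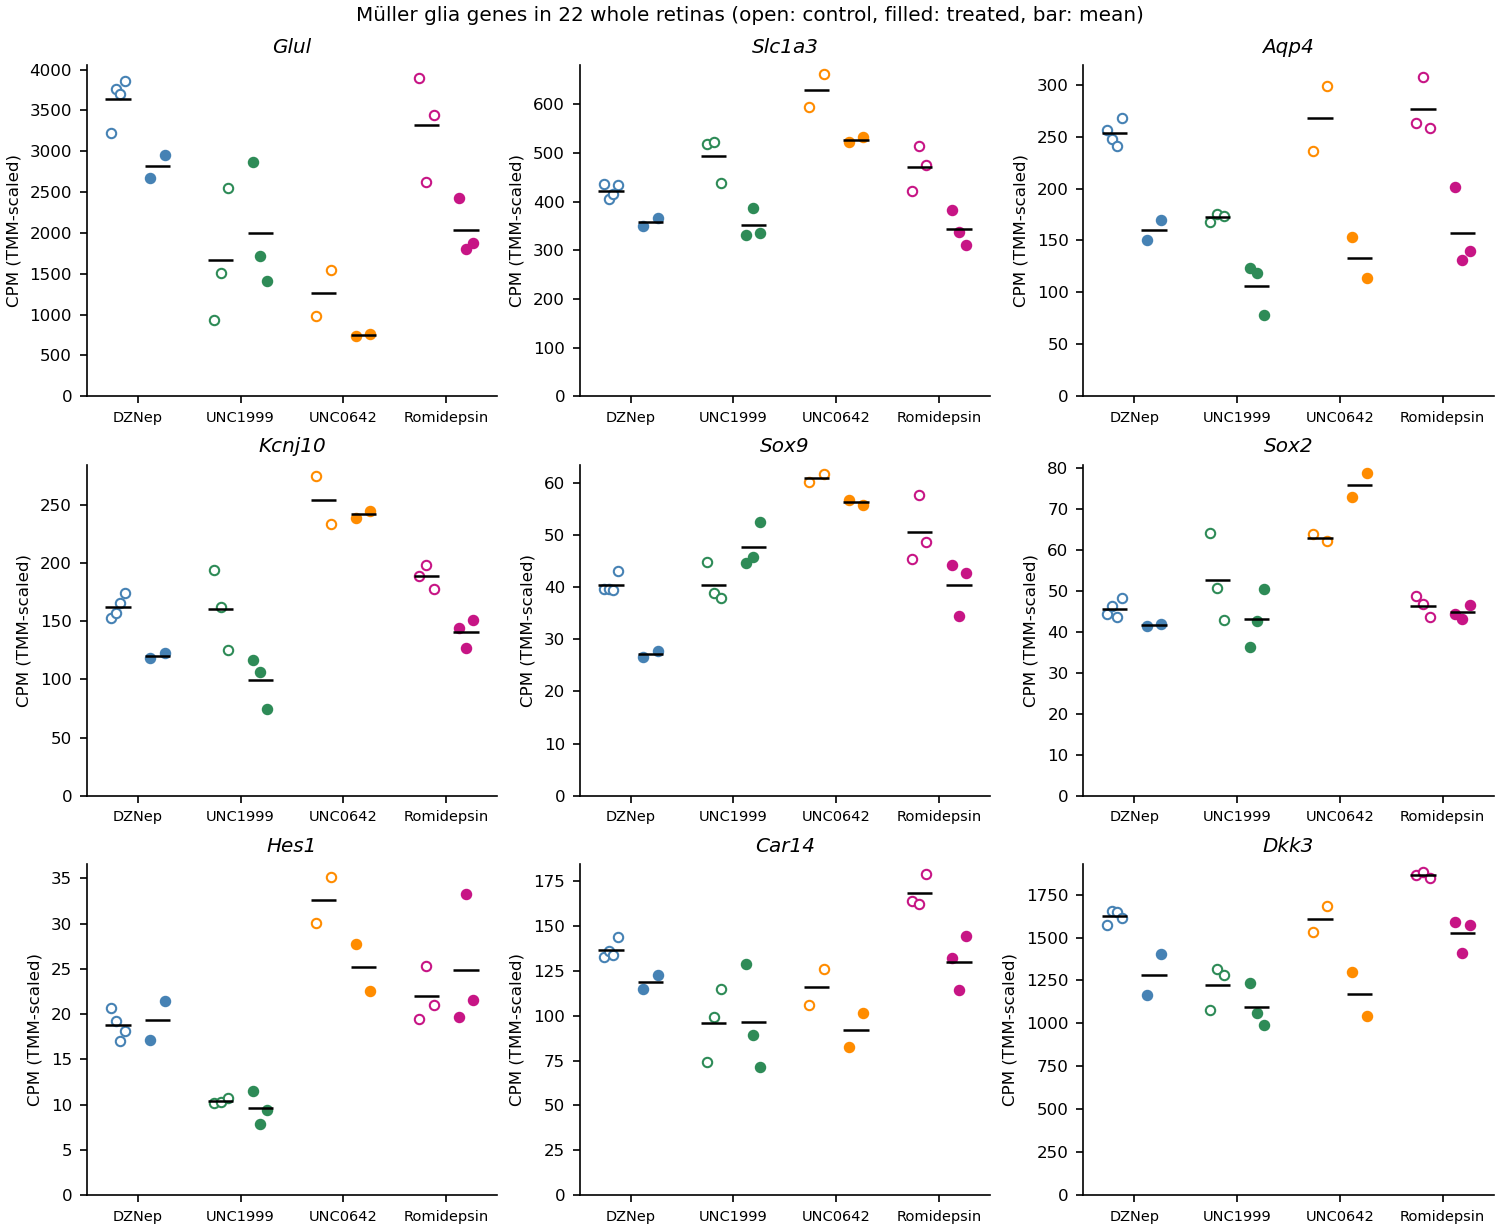
Level of each of the 9 genes in CPM (vertical axis, linear from 0) in every whole retina, by experiment; open points are controls, filled points treated mice and bars group means. All treated points of Aqp4 and Slc1a3 lie below all controls of their experiment, while Hes1 overlaps in 3 of 4 experiments and Glul controls differ between experiments.

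The sorted rods gave a check of cell type. All 9 genes were lower in the 2 control samples of sorted rods than in the 12 control retinas, where 45.2% of all genes were. Sox2 and Hes1 were close to absent, with 3 and 4 counts of Sox2 and 2 and 0 counts of Hes1 in the 2 libraries, against means of 50.8 and 19.7 CPM in retina. The fold change of rods over retina was −7.32 ± 0.315 (SE) for Sox2 on the log2 scale, −7.17 ± 0.412 for Kcnj10 and −6.23 ± 0.766 for Glul, which stood at 0.669%, 0.843% and 1.32% of the retinal level. Sox9 was the least reduced, at 8.96 and 12.5 CPM, or 23.1% of retina (log2 fold change −2.09 ± 0.194, adjusted p = 3.93e-08, edgeR's quasi-likelihood test), followed by Car14 at 14.2% and Aqp4 at 8.49%. Slc1a3 and Dkk3 stood at 5.83% and 6.94%. Summed over their lists, 18 rod genes stood at 352% of retina, 10 cone genes at 183%, 12 bipolar genes at 35.0% and 26 other Müller glia genes at 21.0%. The sum of the 9 stood at 4.16%. Sums of other lists were also low, at 11.2% for microglial, 8.16% for amacrine, 6.87% for pigment epithelium and 5.60% for vascular genes. Horizontal, astrocyte and ganglion cell genes stood at 3.91%, 1.48% and 1.09%. A low level in sorted rods was thus not particular to the 9 genes. Sorting, mouse line and library kit differ together between rods and retinas and cannot be told apart.

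**Figure D2:**
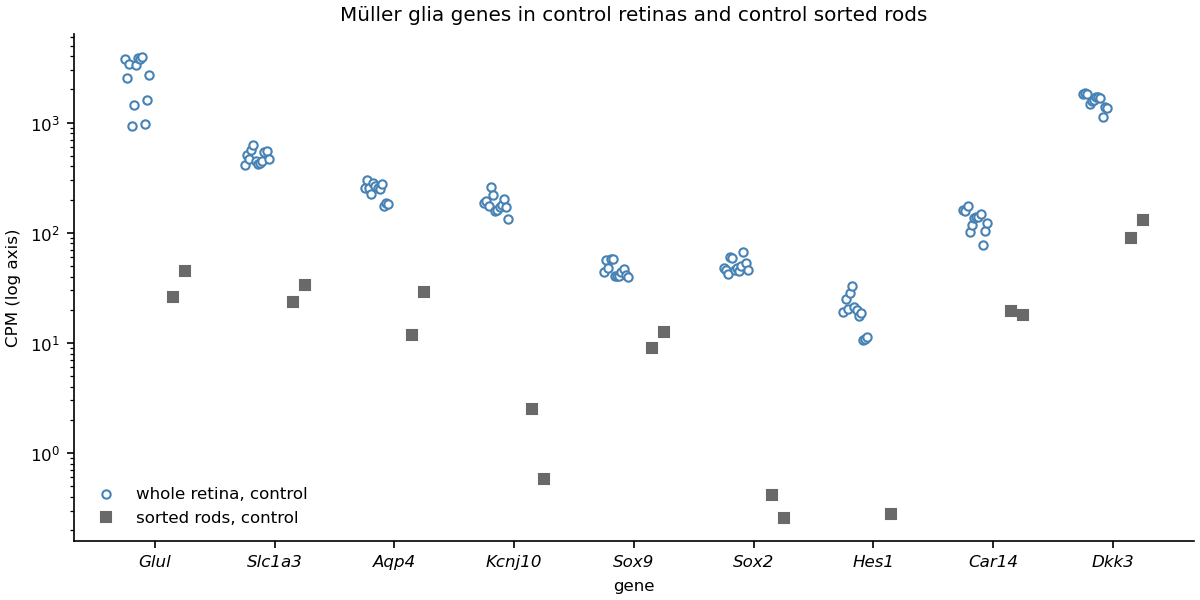
Level of the 9 genes in CPM (vertical log axis) in the 12 control retinas (open circles) and the 2 control samples of sorted rods (squares), scaled together. Every square lies below every circle of its gene, Sox9 least far; the second rod sample had 0 counts of Hes1, which a log axis cannot show.

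Most of the set was lower after DZNep. In 8 of the 9 genes both treated retinas were below all 4 controls, as were 21.5% of all genes, and 7 of the 9 passed as lower, where 9.72% of all genes did (2 of the 9, Aqp4 and Sox9, on a scale set by inner neuron genes, described below). The median of the 9 was −0.34, against −0.0006 over all 16477 genes tested, and only Hes1 overlapped with its controls. In whole retinas, fewer cells of a type and less RNA per cell cannot be told apart.

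Of the genes for glutamate handling, Glul measured 3227, 3761, 3702 and 3859 CPM in the controls and 2678 and 2950.3 CPM in the treated retinas. It fell by 0.37 ± 0.093 (SE) on the log2 scale (adjusted p = 0.0223 by edgeR's quasi-likelihood test). Slc1a3, the glutamate-aspartate transporter, measured 435, 405, 417 and 435 CPM in controls and 351 and 366 CPM after treatment, a fall by 0.24 (SE 0.052) on the log2 scale (edgeR adjusted p = 0.0132). Neither gene's groups overlapped, and the treated retinas lay close to each other.

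The channel genes of the glial endfeet passed with larger fold changes. Aqp4 measured 257, 247, 241 and 268 CPM in the controls and 151 and 169.6 CPM in the treated retinas, and its log2 fold change of −0.66 ± 0.064 was the largest of the set in DZNep (edgeR adjusted p = 0.000671). Kcnj10, the inward rectifier Kir4.1, measured 153, 157, 166 and 175 CPM in the controls and 118 and 123 CPM in the treated retinas, a fold change of −0.43 ± 0.059 (edgeR adjusted p = 0.00176). In both genes the 2 treated values were well apart from the narrow range of the controls.

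The transcription factors split. Sox9 measured 39.7, 39.6, 39.4 and 43.1 CPM in the controls and 26.7 and 27.7 CPM after DZNep, a fold change of −0.58 ± 0.063 (edgeR adjusted p = 0.000878). Sox2 measured 44.5, 46.3, 43.7 and 48.2 CPM against 41.4 and 41.9 CPM, and its fold change of −0.13 ± 0.058 did not pass (edgeR adjusted p = 0.133). Sox9 in the treated retinas was thus far below its controls, and Sox2 only just below them. Hes1 measured 20.7, 19.3, 17.1 and 18.2 CPM in controls and 17.2 and 21.4 CPM in treated retinas, which overlapped (0.02 ± 0.109).

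Car14 passed with the smallest change, −0.20 ± 0.050 (edgeR adjusted p = 0.0206), from 133 to 144 CPM in the controls and 115 and 123 CPM in the treated retinas. Dkk3 fell by 0.34 (SE 0.082) on the log2 scale (edgeR adjusted p = 0.0191), from 1574 to 1655 CPM in the controls to 1164 and 1405 CPM, and its treated retinas differed more from each other than its controls did. Of the 7 genes, Aqp4, Kcnj10 and Sox9 passed in every fit that left out 1 control. The count was 7 without control 1 or 4, 5 without control 3 and 4 without control 2. In these fits 2176, 1182, 1041 and 856 of all genes passed as lower, against 1601 with all libraries. Fits without 1 treated retina hold only 1 other, and the median of the 9 was −0.21 without treated 1 and −0.44 without treated 2.

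Other transcripts moved with these genes in DZNep. The summed level of 18 rod genes was 22788 to 37617 CPM in controls and 68186 to 70751 CPM in treated retinas. All 18 passed as higher. With the rod and cone genes taken out of the library sizes, 7 of the 9 Müller glia genes again passed as lower. That step moved the median of all genes only from −0.0006 to −0.0018, and the part of the rod rise was not tested. Of 12 bipolar genes, 8 passed as lower (median −0.24). When library sizes were set to the summed counts of bipolar, amacrine, horizontal and ganglion cell genes, the median of all genes moved by 0.27 to higher values, and on that scale Aqp4 (−0.39) and Sox9 (−0.30) passed, while Slc1a3, Sox2 and Car14 took small positive values (0.03, 0.14 and 0.07). The median of the 9 was −0.07 on that scale. Lens transcripts were present in treated retina 2 alone, at 76.0 CPM over 7 genes against at most 3.73 CPM in the other 5 retinas.

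UNC1999, the second EZH2 inhibitor, gave a narrower pattern, and none of the 9 genes passed in edgeR's quasi-likelihood test, in which 0.101% of all genes passed as lower and 0.501% as higher. At an unadjusted p under 0.05 the count was 4 of 9 (23.6% of all genes), of which Sox9 was higher. DESeq2 and edgeR's likelihood ratio test each passed 3 of the 9 as lower. Of all genes they passed 708 and 802 as lower, against 16 in the quasi-likelihood test. Those 3, Slc1a3, Aqp4 and Kcnj10, were also the 3 whose treated retinas were all below all controls, as were 13.6% of all genes.

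Aqp4 measured 168, 176 and 174 CPM in the controls and 123, 118 and 78.4 CPM after UNC1999 (log2 fold change −0.70 ± 0.153, edgeR quasi-likelihood adjusted p = 0.0603). Slc1a3 measured 518, 522 and 439 CPM in the controls and 332, 387 and 335 CPM after treatment (−0.49 ± 0.096, edgeR adjusted p = 0.0546). Kcnj10 measured 194, 162 and 125 CPM against 116, 106 and 74.9 CPM (−0.70 ± 0.194, edgeR adjusted p = 0.0884). Treated retina 3 was the lowest for both channels. The same 3 genes passed without control 3, where 1369 of all genes passed as lower. Their fold changes were −0.69 for Aqp4, −0.56 for Slc1a3 and −0.84 for Kcnj10. None of the 9 passed in the fits without any other library.

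Glul was spread widely within both groups of the UNC1999 experiment, at 929, 1506 and 2553 CPM in the controls and 2873, 1714 and 1414 CPM in treated retinas. Its fold change of 0.27 ± 0.378 became −0.03 without control 1 and −0.09 without treated 1. Car14 was spread in the same order, with 74.1, 99.0 and 115 CPM in the controls and 129, 89.1 and 71.6 CPM after treatment, and a fold change of 0.00 ± 0.226. Both were lowest in control 1 among controls and highest in treated 1 among treated retinas, so that 1 library set the direction of each.

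Sox9 was the one gene of the set with all 3 UNC1999 values above the control mean, at 44.6, 45.9 and 52.4 CPM after treatment against 44.8, 38.9 and 37.9 CPM in the controls (0.24 ± 0.093, edgeR adjusted p = 0.176). The groups overlapped by control 1. The retinal pigment epithelium also expresses Sox9 and Car14, and the summed level of its 12 marker genes was 132 to 159 CPM in the controls and 438 to 497 CPM after UNC1999, with 9 of the 12 passing as higher; the part of this epithelium in the Sox9 values was not tested. Sox2 (−0.28), Hes1 (−0.13) and Dkk3 (−0.16) overlapped between groups. Hes1 stayed between 7.87 and 11.5 CPM in all 6 retinas.

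Aqp4 had the largest fold change of the 9 genes in the UNC0642 retinas. It measured 236 and 299 CPM in the 2 controls and 153 and 114 CPM in the 2 treated retinas (log2 fold change −1.0 ± 0.166, edgeR quasi-likelihood adjusted p = 0.299). None of the 9 genes passed, nor did any gene of the 16321 tested (0%), although 2407 genes (14.7%), 7 of the 9 among them, had an unadjusted p under 0.05. Of those 7, Sox2 was higher and the other genes lower. DESeq2 passed 68 genes as lower and 106 as higher, and the likelihood ratio test of edgeR 47 and 98, each with 2 of the 9 as lower. In 7 of the 9 both treated retinas were below both controls, as were 25.2% of all genes.

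Glul measured 987 and 1540.3 CPM in the controls and 741 and 759 CPM after UNC0642 (−0.75 ± 0.192). Dkk3 measured 1535 and 1685 CPM against 1301 and 1045 CPM (−0.46 ± 0.117), and Slc1a3 596 and 663 CPM against 523 and 533 CPM (−0.25 ± 0.078). Hes1 (−0.37 ± 0.133), Car14 (−0.34 ± 0.127) and Sox9 (−0.11 ± 0.075) also lay below their controls, and Kcnj10 (−0.07 ± 0.091) overlapped with them. Sox2 went the other way, at 63.8 and 62.2 CPM in controls and 72.9 and 78.7 CPM in treated retinas (0.27 ± 0.078), apart from its controls as were 26.9% of all genes on the higher side. Without control 1, a fit that holds only 1 control, the fold changes were −1.16 for Aqp4, −1.04 for Glul and 0.05 for Kcnj10.

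Romidepsin retinas had a median fold change of −0.37 over the 9 genes, and of 0.01 on the scale of inner neuron genes. None of the 9 genes passed in edgeR's quasi-likelihood test, in which 0.174% of all genes passed as lower and 0.573% as higher. At an unadjusted p under 0.05 the count was 6 of the 9 (19.4% of all genes). DESeq2 passed 4 of the 9 as lower, and edgeR's likelihood ratio test 2. Of all genes they passed 466 and 528 as lower, against 28 in the quasi-likelihood test. In 7 of the 9, all but Sox2 and Hes1, the 3 treated retinas were below the 3 controls, as were 12.5% of all genes.

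Aqp4 measured 263, 307 and 258 CPM in the controls and 201, 131 and 139.5 CPM after Romidepsin (−0.81 ± 0.175, edgeR quasi-likelihood adjusted p = 0.0656), and it passed without treated 1 (−1.03). Glul measured 3896, 2623 and 3448 CPM against 2428, 1798 and 1879 CPM (−0.71 ± 0.178, edgeR adjusted p = 0.0857). Slc1a3 measured 421, 515 and 475 CPM against 383, 338 and 311 CPM (−0.45 ± 0.130). In these 3 genes treated retina 1 was the nearest to the controls, and Kcnj10 (−0.42 ± 0.114), Car14 (−0.37 ± 0.121), Sox9 (−0.32 ± 0.144) and Dkk3 (−0.29 ± 0.107) were lower by less.

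Sox2 overlapped between groups (46.4 ± 2.57 CPM in controls and 44.8 ± 1.66 CPM after Romidepsin, SD, n = 3 each), and Hes1 was raised in 1 treated retina alone, at 33.3 CPM against 19.7 and 21.5 CPM in the other 2 and 19.5 to 25.4 CPM in the controls. Without that retina the Hes1 fold change went from 0.18 to −0.09. Inner retinal neurons moved with the set here, since the summed level of 12 bipolar genes was 2307 to 2595 CPM in controls and 1465 to 1866 CPM after treatment. Scaled to the inner neurons, which moved the median of all genes by 0.37, Aqp4 (−0.45), Glul (−0.32), Slc1a3 (−0.08) and Kcnj10 (−0.04) stayed negative, and Sox9 (0.05), Sox2 (0.33), Car14 (0.01) and Dkk3 (0.09) did not.

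**Figure D3:**
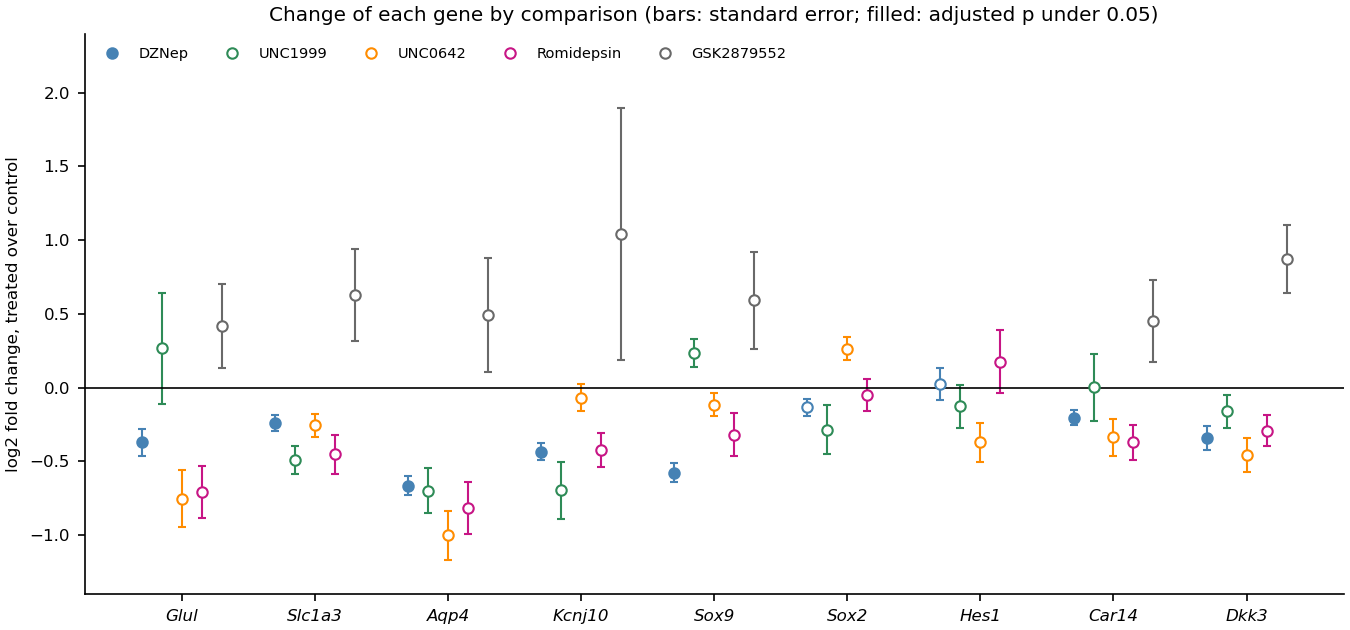
Log2 fold change of treated over control (vertical axis) of each gene in the 5 comparisons, with standard errors; filled points passed at an adjusted p under 0.05. Filled points occur in DZNep only, Aqp4 is negative in the 4 retina comparisons (−0.66 to −1.0), and the sorted rods are all positive with wide errors.

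Across the 4 retina experiments, Aqp4 and Slc1a3 were the 2 genes of the 9 whose treated retinas were all below all controls of their experiment every time, as were 1.13% of the genes tested in all 4. A negative fold change in all 4 was found for 4 of the 9, Slc1a3, Aqp4, Kcnj10 and Dkk3, and for 16.2% of all genes. On the scale of inner neurons this did not hold for Slc1a3 in DZNep or for Dkk3 in Romidepsin (values above). The experiments share no control libraries. Of the 54 tests of a difference between a pair of treatments in 1 fit of all 22 retinas, 1 passed. The Sox9 effect of UNC1999 was higher than that of Romidepsin by 0.55 ± 0.136 on the log2 scale (edgeR quasi-likelihood adjusted p = 0.0256), in a comparison in which 5.11% of all genes passed. The Sox9 effect of DZNep was lower than that of UNC1999 by a larger value (−0.81 ± 0.142), and it did not pass (edgeR adjusted p = 0.115), in a comparison in which 0.00579% of all genes passed. Over all genes the share was 0.0232% for DZNep less UNC0642, 0.289% for DZNep less Romidepsin, 0.0116% for UNC1999 less UNC0642 and 0.0174% for UNC0642 less Romidepsin, and none of the 9 passed in these. The schedules were not equal, since DZNep was given daily at first and every second day later, and the vehicle of UNC1999 held solvents that saline does not.

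**Figure D4:**
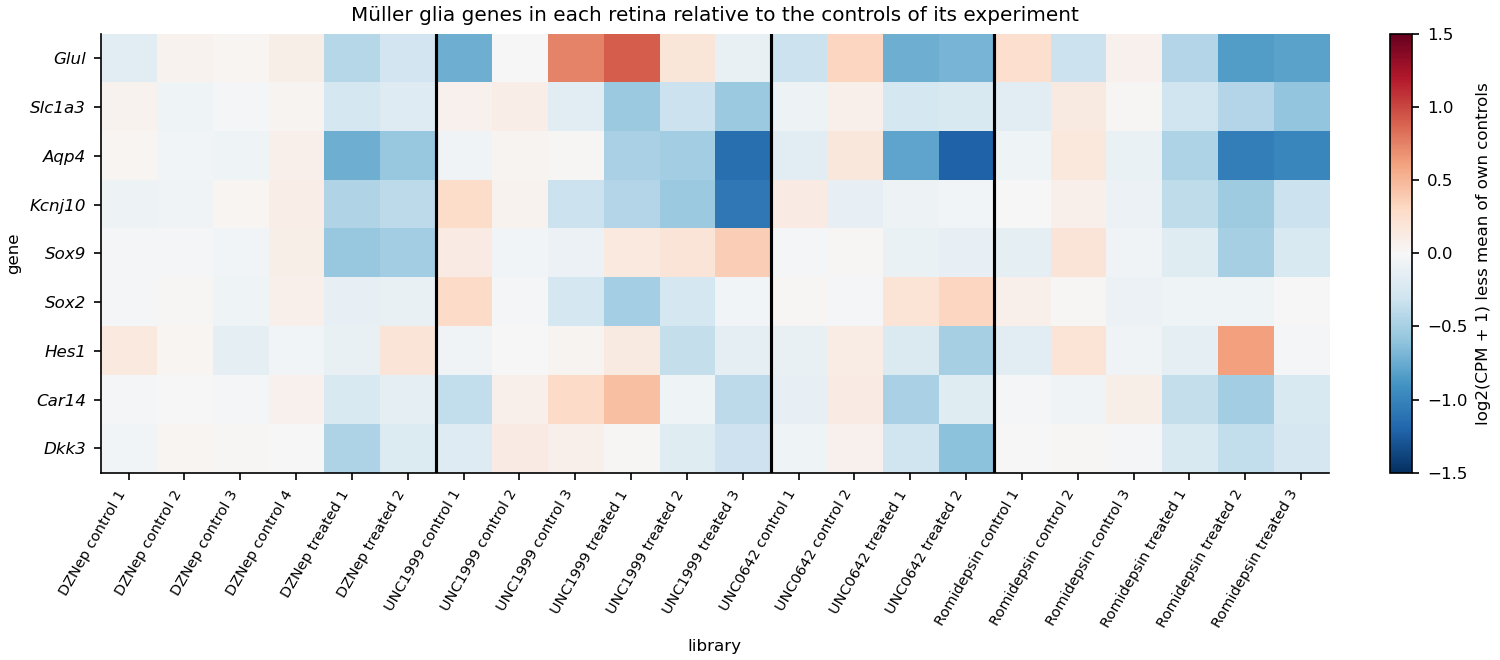
Each retina (columns, by experiment) and gene (rows), coloured by log2(CPM + 1) less the mean of the controls of its own experiment (blue lower, red higher). Aqp4 is blue in all 10 treated retinas, Glul is red or pale in UNC1999 treated retinas, Sox9 is blue in DZNep and red in UNC1999, and Hes1 is red in Romidepsin treated 2.

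The 9 genes did not vary as 1 block over the 22 retinas, and the correlations that follow are descriptions, over libraries that share experiments and depth. With each value taken relative to its own controls, as log2(CPM + 1), Pearson's r was 0.88 between Glul and Car14, 0.87 between Aqp4 and Dkk3, and 0.83 between Slc1a3 and Aqp4. Glul and Sox2 ran opposite to each other (r = −0.68). Sox2 and Hes1 had mean correlations to the other 8 of −0.14 and −0.01, and Aqp4 had the highest, 0.48. Among 10841 genes with a mean of at least 10 CPM, the 9 included, the other genes most like the mean of the 9 were Raver2 (r = 0.95), Rin2 (0.94), Antxr1 (0.93), Arvcf (0.92) and Cckbr (0.92).

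In GSK2879552-treated rods, the genes that could be tested had higher mean levels than in control rods, but none passed. Sox2 and Hes1, at most 0.606 and 1.04 CPM in any of the 4 libraries, were too low to test. Of the other 7, all had positive fold changes, and 5 had both treated samples above both controls (15.9% of all genes did). None of the 7 passed, nor did any of the 14478 genes tested (0%, with 711, or 4.91%, at an unadjusted p under 0.05). DESeq2 passed 14 genes as lower and 27 as higher, and edgeR's likelihood ratio test, which the study used, 25 and 46. None of the 7 was among them. Dkk3 came nearest, at 86.3 and 118 CPM in controls and 169 and 206 CPM after treatment (0.87 ± 0.231, unadjusted p = 0.00463, adjusted p = 0.762, edgeR's quasi-likelihood test), and it passed when genes with low counts were kept. Sox9 measured 8.56 and 11.3 CPM in controls and 14.7 and 15.4 CPM in treated rods (0.59 ± 0.328), and Slc1a3 22.3 and 30.4 CPM against 51.1 and 30.6 CPM (0.63 ± 0.314). Glul, at 24.9 and 41.0 CPM against 46.6 and 41.9 CPM (0.42 ± 0.287), did not overlap, by under 1 CPM. Kcnj10, below 4 CPM in all 4 libraries, had the largest value of the 7 and overlapped between groups (1.04 ± 0.854). Among markers of other cells, medians were positive for vascular genes (1.03 over 6) and amacrine genes (0.99 over 6), near 0 for other Müller glia genes (0.06 over 24), and negative for cone genes (−0.95 over 10, all negative, 9 at an unadjusted p under 0.05), bipolar genes (−0.45 over 12, all negative), microglial genes (−0.47 over 8, all negative) and gliosis genes (−0.60 over 16). None of these genes passed, and whether other cells in the sort had a part was not tested.

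The wider gene groups to which the 9 belong were followed in the same fits, without the 9 themselves. In DZNep, 12.9% of all genes passed as higher and 9.72% as lower, and the counts that follow are to be read against those shares. Of 25 other Müller glia genes, 16 passed as lower in DZNep and 3 as higher (median −0.32). Apoe, the glial lipid carrier, fell by 0.79 (SE 0.107) on the log2 scale, the antioxidant enzyme Prdx6 by 0.59 (SE 0.059) and the transporter Abca8a by 0.58 (SE 0.086). Those higher included the homeobox factor Rax (0.44 ± 0.069) and the glutamine transporter Slc38a3 (0.27 ± 0.057). These were also the 2 genes of the list that passed as higher in sorted control rods than in control retinas (0.56 and 0.35), where 22 passed as lower. The part of rods in their rise was not tested. Medians of these 25 genes were −0.22 in UNC1999, −0.17 in UNC0642 and −0.24 in Romidepsin, where none passed. At an unadjusted p under 0.05 there were 12, 8 and 12 genes, against 23.6%, 14.7% and 19.4% of all genes.

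Of 13 other glutamate cycle genes, 6 passed as higher in DZNep and none as lower, and 4 of the 13 had negative values (median 0.16). The largest of those that passed were Slc17a7 (0.48 ± 0.077), the vesicular transporter of photoreceptors and bipolar cells, Slc1a7 (0.33 ± 0.045), a glutamate transporter of those same cells, and the glutamine transporter Slc38a2 (0.27 ± 0.055). In the other 3 retina comparisons none of the 13 passed. At an unadjusted p under 0.05 there were 7 in UNC1999, 2 in UNC0642 and 2 in Romidepsin. Of all genes, 23.6%, 14.7% and 19.4% had such a p in these comparisons, so the counts of 2 were not above those shares.

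Of 17 genes for potassium, water and the dystrophin complex that anchors AQP4 and Kir4.1, 5 passed as higher and 4 as lower in DZNep. Those lower included Mlc1 (−0.45 ± 0.049), a membrane protein of glial endfeet, the matrix proteoglycan Agrn (−0.31 ± 0.047) and Dtna (−0.24 ± 0.045), the dystrobrevin of the complex. Those higher included the water channel Aqp1 (1.24 ± 0.139) and the syntrophin Sntb2 (0.94 ± 0.113). In UNC1999 Sntb2 (0.88 ± 0.141) and Dmd (0.75 ± 0.119), which encodes dystrophin, passed as higher, while Aqp4 had a value of −0.70 and did not pass. In control samples, Dmd (log2 fold change 2.63) and Aqp1 (0.96) were higher in sorted rods than in whole retinas, and Sntb2 (−1.11) was lower. The part of rods in the values of these genes was not tested. Among 16 carbonic anhydrase and bicarbonate genes, 4 passed as higher and 2 as lower in DZNep (median −0.05), the latter near the share over all genes, and Car12, another membrane carbonic anhydrase, passed in both DZNep (1.59 ± 0.312, from 3.15 to 9.64 CPM) and UNC1999 (1.92 ± 0.188, from 4.55 to 17.1 CPM).

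Of 26 Notch genes, 2 passed as higher and 4 as lower in DZNep, near the shares over all genes (median 0.01). The ligand Jag1 (0.48 ± 0.107) and the coactivator Maml1 (0.31 ± 0.065) rose, and Notch1 (−0.34 ± 0.065), Dtx4 (−0.35 ± 0.058) and Dtx1 (−0.29 ± 0.076) fell, while the target Hes1 gave 0.02. Of 13 other SOX genes, Sox8, a SOXE factor like Sox9, fell by 0.40 (SE 0.059) on the log2 scale in DZNep, Sox3 was lower (−2.26 ± 0.424) and Sox10 higher (1.72 ± 0.427), both below 2 CPM. Progenitor factors included 5 lower and 1 higher of 17 in DZNep, among them Nfix (−0.38 ± 0.043) and Id3 (−0.39 ± 0.081), and Lin28a rose in Romidepsin (1.42 ± 0.243, from 1.73 to 4.66 CPM). Of the Wnt genes, the group of Dkk3, 4 of 22 passed as higher and 3 as lower in DZNep, again near the shares over all genes, among the latter Frzb (−0.44 ± 0.063), and the Dickkopf receptor Kremen1 rose in Romidepsin (1.03 ± 0.176).

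Reactive gliosis genes passed in 2 of the 4 retina comparisons. In DZNep 6 of 20 passed as lower and none as higher, among them Timp1 (−1.38 ± 0.250), Cd44 (−1.25 ± 0.074) and Serpina3n (−0.86 ± 0.203). In Romidepsin 3 of 21 passed as higher, Lif (3.64 ± 0.469), the cytokine that signals photoreceptor injury, and its response genes Socs3 (2.79 ± 0.437) and Cebpd (1.78 ± 0.260), with a median of 0.84 over the list. None passed in UNC1999 (median −0.56) or UNC0642 (0.09). At an unadjusted p under 0.05 there were 4 and 5 gliosis genes, against 23.6% and 14.7% of all genes. The 9 mature genes had medians of −0.34 in DZNep and −0.37 in Romidepsin, or −0.07 and 0.01 on the scale of inner neuron genes. In these 2 comparisons gliosis genes passed in opposite directions, and the difference between those gliosis values was not tested.

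Marker lists of the other cell types are given for the same libraries. Rod genes had medians of 1.13 in DZNep, 0.97 in UNC1999, 0.29 in UNC0642 and 0.41 in Romidepsin. Microglial genes had negative medians in all 4 (−0.79, −1.16, −0.65 and −0.72), and their summed level was 219 to 444 CPM in DZNep controls and 179 to 198 CPM after treatment. Pigment epithelium genes had medians of 1.24 in DZNep and 1.70 in UNC1999, 0.19 in UNC0642 and −1.03 in Romidepsin. Vascular genes, of the cells that Müller endfeet contact, had medians of −0.07 to −0.15, and 2 of 8 passed as lower in DZNep, Cldn5 (−0.38 ± 0.064) and Pdgfrb (−0.24 ± 0.071). Bipolar genes, which share the inner nuclear layer with Müller glia, had medians of −0.24, 0.00, −0.16 and −0.49, and of the 6 astrocyte genes, whose cells also express Glul, Slc1a3, Aqp4 and Kcnj10, 1 passed (S100b, −0.39 ± 0.103, in DZNep). The part of these lists in the values of the 9 genes was not tested.

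**Figure D5:**
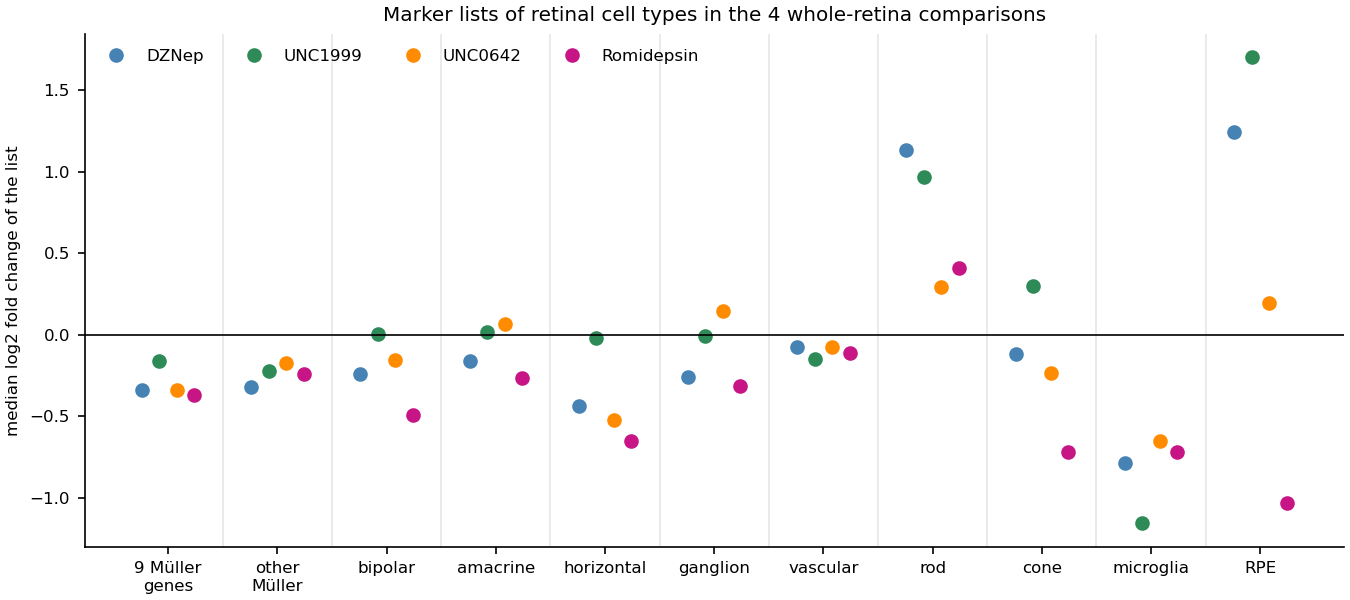
Median log2 fold change (vertical axis) of marker lists of retinal cell types in the 4 whole-retina comparisons, 1 point per comparison, with the 9 genes first. The 9 genes and the other Müller glia genes lie between −0.16 and −0.37 (the 9 genes at 0.01 in Romidepsin when scaled to inner neurons), rod genes lie above 0, and pigment epithelium genes lie above 1 in DZNep and UNC1999 and below −1 in Romidepsin.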

How the data were processed

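Polyadenylated RNA of 22 whole retinas and 4 samples of sorted rods was sequenced, and the authors deposited raw counts per Ensembl gene, made with HISAT2 2.2.1 and HTSeq 0.11.2 on NCBIM37 per the labels. The labels name a stranded kit for all samples, the study's methods another kit for sorted rods. Groups were taken from sample titles, because other label fields carry running numbers in place of the genotype or of UNC1999. Identifiers were paired with symbols through GENCODE M1 (37205 of 37991 matched). The members and gene lists were chosen with earlier results of these data known. Counts were filtered by expression (filterByExpr), scaled by TMM within each experiment and tested with edgeR 4.0.16 (quasi-likelihood, adjusted over all genes tested). Names printed are all members, plus, of each other list, up to 3 genes per direction and comparison with the largest change among those that passed, plus the 5 genes most like the members' mean over 22 retinas. One gene that this rule would name is not reported here. Control groups, and sorted rods against retinas, were tested the same way. The fits were tested on simulated data, where of genes changed 2-fold the DZNep design called 77 of 100, UNC1999 62 of 99, UNC0642 70 of 100, Romidepsin 55 of 97 and GSK2879552 17 of 98. In the same order, 26, 15, 17, 11 and 6 unchanged genes were called as well. How far these rates hold for the real counts was not tested. The 23 replicate pairs differed by more than sampling noise (chi-square per gene at least 3.89). Limits of detection cover counting error only, while standard errors of fold changes come from the quasi-likelihood fits and include the spread between samples. Alternatives were a likelihood ratio test, DESeq2 1.42.0, relative log expression factors, other filters, a replicate block, a joint fit, 2 other library sizes, a fold threshold and leaving out each library.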

Additional observations from a re-analysis of the deposited data

Results flagged for a closer look

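Sox9 in the 4 DZNep controls was flagged because control 4 stood apart from the other 3, at 43.1 CPM against 39.4 to 39.7 CPM, a gap of 0.918 of the whole range. The treated retinas lay at 26.7 and 27.7 CPM, below all 4 controls. It was the 1 control group of 4 samples among the comparisons, 9 genes were checked in it, and chance alone flags about 1 in 20 such groups.

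The Sox9 effects of UNC1999 and Romidepsin differed by 0.55 ± 0.136 on the log2 scale (edgeR's quasi-likelihood test, adjusted p = 0.0256), with Sox9 at 0.24 in UNC1999 and −0.32 in Romidepsin. Of the 3 UNC1999 retinas, 2 were above all 3 controls in Sox9, and the 3 Romidepsin retinas were below theirs. The UNC1999 libraries, treated and control, are a series of their own. A shift shared by both arms drops out of this difference. A series that alters the size of an effect cannot be told apart from the treatment. Neither effect passed alone.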

How the results depend on the processing

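In DZNep, 7 of the 9 genes passed as lower, against 0 with a fold threshold of 1 on the log2 scale added. The count was 3 with a replicate block, 2 with inner neuron scaling and 2 in the joint fit of 22 retinas. Those fits passed 496, 160 and 370 of all genes as lower, against 1601 at first. Leaving out 1 control gave 4 to 7, with 856 to 2176 of all genes lower. In UNC1999 the count of 0 became 3 with the likelihood ratio test, DESeq2, no filter on low counts and the joint fit. These passed 802, 708, 491 and 728 of all genes as lower, against 16 at first. The count was 1 with the replicate block (10 of all genes), and 0 to 3 when 1 library was left out. The 3 came without control 3, where 1369 of all genes passed as lower. In UNC0642 the count became 2 with the likelihood ratio test and DESeq2, 4 without a filter and 3 with the replicate block. These passed 47, 68, 609 and 345 of all genes as lower, against 0 at first. In Romidepsin the count became 2 with the likelihood ratio test, 4 with DESeq2, 2 without a filter and 4 in the joint fit. Those fits passed 528, 466, 260 and 1447 of all genes as lower, against 28 at first. Without 1 library the count was 0 to 1, with 0 to 186 of all genes lower. In GSK2879552 1 gene, Dkk3, passed as higher without a filter, where 143 of all genes passed as higher. The difference between the DZNep and UNC1999 effects passed for 1 gene, Sox9, with the likelihood ratio test. The cause of these shifts was not tested. Same-numbered samples showed no steady pairing, with correlations of their deviations between −0.279 and 0.230. Where both groups hold 2 samples this gives only 1 value, which cannot settle pairing. The block values are given for completeness. Directions turned with inner neuron scaling for Slc1a3 (0.028), Sox2 (0.14) and Car14 (0.068) in DZNep and for Sox9 (0.050), Sox2 (0.33), Car14 (0.010) and Dkk3 (0.089) in Romidepsin. They also turned for Hes1 in DZNep (−0.063 with the replicate block, −0.13 to 0.19 without 1 library), Glul in UNC1999 (−0.087 to 0.72 without 1 library), Car14 in UNC1999 (−0.00023 with at least 10 counts in every library, −0.018 with the block, −0.26 to 0.18 without 1 library), Kcnj10 in UNC0642 (−0.18 to 0.050) and Hes1 in Romidepsin (−0.089 to 0.32). Relative log expression factors and library sizes without rod and cone genes turned no direction and changed no call. With 2 treated samples in DZNep, UNC0642 and GSK2879552, a fit without 1 of them assumes that the lone sample varies like the controls.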
